A study of Mus musculus with 2 samples.

Results

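RNA levels of 10 genes that mark satellite cells or direct the muscle lineage were examined in gastrocnemius muscle: the paired-box factors Pax7 and Pax3, the MyoD family Myf5, Myod1, Myog and Myf6, and the surface markers Cdh15, Chodl, Calcr and Megf10. They were picked by name, as the Pax and MyoD family factors plus satellite cell surface markers, and all 10 were found among the 34745 genes of the deposited count table. These genes, and the lists of related genes below, were chosen when earlier results of these data were known. The shares over all tested genes set beside their counts are therefore a description and not a test. Total RNA of the muscle was sequenced as 2 libraries, both of C57BL/6 mice aged 8 weeks. The first is of genotype CIPC-flox/flox, in which the Cipc gene is flanked by loxP sites (flox/flox). The second is labelled CIPC-scko (scKO), which by the series title means that Cipc was deleted in satellite cells. Cipc encodes a protein that binds and inhibits the circadian factor CLOCK. No source used here gives the Cre driver, the number of animals behind a library or whether animals were pooled. The title speaks of mdx mice, the dystrophin-deficient strain, and the sample labels name no mdx allele, so it is not settled here whether either muscle was dystrophic.

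Satellite cells are the stem cells of skeletal muscle, and lie between the muscle fibre and its basement membrane. In the quiescent state they carry Pax7. On activation they raise Myod1, and on commitment to differentiate they raise Myog and lose Pax7. The MyoD family are basic helix-loop-helix factors that pair with E-proteins and bind E-boxes, short DNA motifs, at muscle genes. Mature fibre nuclei also transcribe Myf6, and to a lesser extent Myod1 and Myog, so RNA of the whole muscle mixes stem cells and fibres. Fewer satellite cells and less RNA per satellite cell cannot be told apart in such data.

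The libraries held 14727219 counts (flox/flox) and 13842100 counts (scKO), of which mitochondrially encoded genes took 25.7% in each. Cipc had 658 and 111 counts, 5.72-fold lower in scKO in RNA of the whole muscle (log2 ratio −2.51, −2.82 to −2.22). Such RNA does not show in which cells Cipc was lower, so whether the difference is confined to satellite cells was not tested. Genes of the muscle fibre were abundant in both, with skeletal α-actin (Acta1) at 17519 and 17197 FPKM. With 1 library per genotype there is no replicate check and no test: each difference compares these libraries, not the genotypes. Where a pair of values is given, flox/flox comes first and scKO second. Brackets after a log2 ratio of scKO over flox/flox give an exact 95% binomial interval, which covers counting error only and not the spread between animals. The ratios compare counts scaled by the TMM method, which corrects for differences in library makeup. A gene was tested, meaning that its interval was read, where its counts in both libraries summed to at least 20. Of the 10 genes, 9 passed and Pax3 did not. CPM stands for counts scaled to the library total, and FPKM for the authors' values, which also correct for gene length.

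Of the 9 tested genes, 4 had an interval below 0, namely Pax7, Myod1, Myog and Myf6, against 12.3% of all 12662 tested genes. None had an interval above 0, against 12.8% of all tested genes. Myog was the single one at least 2-fold apart with an interval that excludes 0, which 1.91% of all tested genes met on the lower side and 1.49% on the higher side (3.40% together). Among genes with a summed count from 100 to under 1000, where Myog lies, 1.47% met it on either side, and from 1000 to under 10000, 0.876%. Myog, with a summed count of 117, lies near the lower edge of its range, and from 20 to under 100 the share was 10.6%. The 4 surface markers, and Myf5, had intervals that include 0. The median log2 ratio of the 9 genes was −0.16, beside 0.0021 over all tested genes. Low counts spread the ratios of any gene: the quartiles were −0.45 and 0.34 among tested genes with a summed count under 100, −0.16 and 0.17 from 100 to under 1000, and −0.09 and 0.11 from 1000 to under 10000. The share with an interval below 0 was 8.62% and 10.7% in these ranges, and 17.5% from 1000 to under 10000, the range of Myf6.

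**Figure D1:**
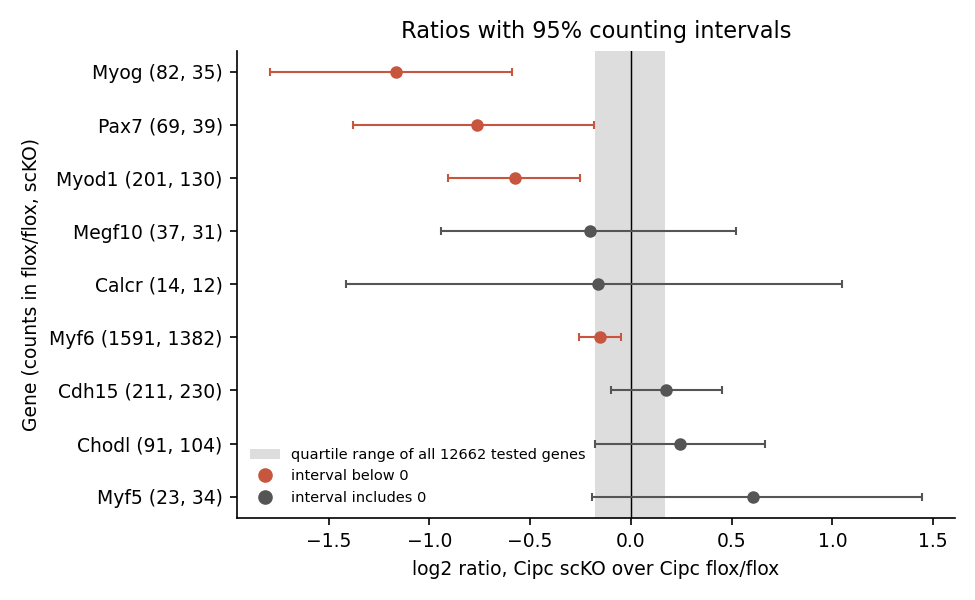
Log2 ratios of scKO over flox/flox for the 9 tested genes, with points for the ratio, bars for the 95% interval of counting error and counts of both libraries beside each name. The grey band spans the quartiles of all 12662 tested genes, −0.18 to 0.17. The points of Myog, Pax7, Myod1 and Megf10 lie below it, and those of Myf5, Chodl and, narrowly, Cdh15 above it. The bars of Myf5, Chodl, Cdh15, Calcr and Megf10 cross 0.

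Myf6 was by far the most abundant of the 10 genes per length, 11.8-fold above the next gene in flox/flox and 13.7-fold in scKO. In flox/flox the order was Myf6 (86.6 FPKM), Myod1 (7.36), Cdh15 (5.04), Myog (3.72), Chodl (1.58), Myf5 (0.750), Pax7 (0.732), Megf10 (0.319), Calcr (0.108) and Pax3 (0.0315). Of these neighbours, only Myf5 and Pax7 did not differ beyond counting error (ratio 1.02, 0.609 to 1.66). In scKO the order was Myf6 (80.0 FPKM), Cdh15 (5.84), Myod1 (5.07), Chodl (1.92), Myog (1.69), Myf5 (1.18), Pax7 (0.440), Megf10 (0.284), Calcr (0.0983) and Pax3 (0.0335). Cdh15 thus stood above Myod1 there, and Chodl above Myog, but neither pair differed beyond counting error (ratios 1.15, 0.926 to 1.44, and 1.13, 0.765 to 1.71). The neighbours Myog and Myf5, Pax7 and Megf10, and Calcr and Pax3 did not differ beyond it in scKO either. Myf5 and Pax7, level with each other in flox/flox, were 2.68-fold apart in scKO (1.64 to 4.35).

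**Figure D2:**
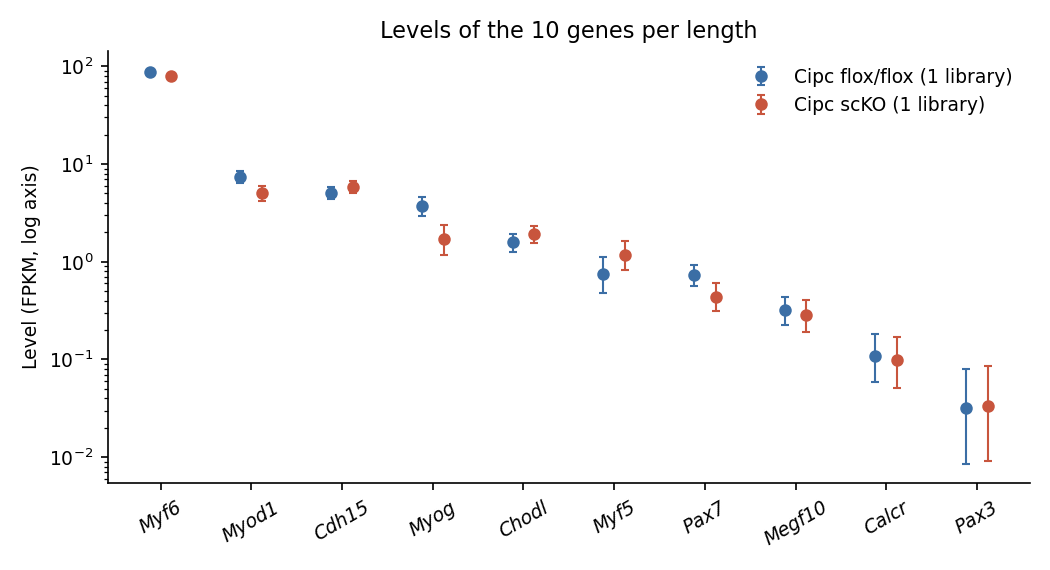
Levels of the 10 genes in FPKM on a log axis, 1 point per library, with bars for the exact 95% Poisson interval of the count. Myf6 stands above every other gene in both libraries, at 86.6 and 80.0 FPKM, and Pax3 lies lowest at 0.0315 and 0.0335 FPKM.

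Pax7, the paired-box factor that keeps satellite cells in the stem cell state, was lower in the scKO library. It lies on the minus strand of chromosome 4, 139737062 to 139833528 in GRCm38 (ENSMUSG00000028736). Its counts were 69 and 39, 4.69 and 2.82 CPM. That is 1.71-fold lower in scKO (log2 ratio −0.76, −1.38 to −0.19), so a difference as small as 1.14-fold or as large as 2.60-fold lies within counting error. Its relative Pax3, which founds the muscle lineage in the embryo and is kept by few adult limb satellite cells, had 4 counts in each library. At that depth a difference of up to 5.18-fold lower or 5.56-fold higher was not detectable. Pax3 lies on chromosome 1, 78101267 to 78197134 (ENSMUSG00000004872). The longest run of bases that transcripts of Pax3 and Pax7 share was 26. Transcripts of Pax3 share 50-base runs with those of 157 other genes, so its few counts are uncertain, while Pax7 shares none.

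The 4 genes of the MyoD family arose by duplication and are alike in the part that codes for the basic helix-loop-helix domain, which binds DNA and the E-protein partner. The most alike stretch of 180 bases of their coding sequences in GENCODE M21 is shown, since it is both what makes them a family and where their reads could be confused. Capitals mark the 102 bases that are the same in all 4.
Myf5: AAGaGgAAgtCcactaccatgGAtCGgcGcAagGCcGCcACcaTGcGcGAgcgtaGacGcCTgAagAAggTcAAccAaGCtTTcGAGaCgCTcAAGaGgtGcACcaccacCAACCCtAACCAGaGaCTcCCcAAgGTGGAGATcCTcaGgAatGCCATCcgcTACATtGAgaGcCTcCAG
Myod1: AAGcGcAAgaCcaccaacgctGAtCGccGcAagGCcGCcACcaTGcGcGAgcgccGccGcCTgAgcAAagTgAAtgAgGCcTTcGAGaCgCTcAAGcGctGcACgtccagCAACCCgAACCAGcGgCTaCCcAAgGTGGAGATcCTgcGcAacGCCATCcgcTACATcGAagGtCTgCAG
Myog: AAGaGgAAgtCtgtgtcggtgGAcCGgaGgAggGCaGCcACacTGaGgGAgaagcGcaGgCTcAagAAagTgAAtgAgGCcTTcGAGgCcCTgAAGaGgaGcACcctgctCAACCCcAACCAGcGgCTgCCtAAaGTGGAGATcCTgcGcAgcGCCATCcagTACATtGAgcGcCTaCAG
Myf6: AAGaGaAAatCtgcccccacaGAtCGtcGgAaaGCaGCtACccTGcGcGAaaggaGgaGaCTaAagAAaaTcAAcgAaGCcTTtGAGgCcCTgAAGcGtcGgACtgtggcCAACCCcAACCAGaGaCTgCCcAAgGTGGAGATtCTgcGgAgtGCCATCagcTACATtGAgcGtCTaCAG
The stretches begin at base 226 of the coding sequence in Myf5, 304 in Myod1, 220 in Myog and 256 in Myf6. Within them Myf5 and Myod1 were the most alike pair (78.9% of bases) and Myod1 and Myf6 the least alike (68.9%). Outside them the aligned coding bases were 39.9% (Myf5 and Myog) to 59.3% (Myf5 and Myod1) identical. Identical bases come in short runs: the longest that any pair of full transcripts shares was 26 bases (Myf5 and Myod1), followed by 21 (Myod1 and Myog). No transcript of another gene shares a run of 50 bases with any of the 4. A read longer than these runs can match 1 gene of the family at most without a mismatch.

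Myod1, which commits cells to the muscle lineage and is raised in activated satellite cells, was lower in scKO. It had 201 and 130 counts, 13.6 and 9.39 CPM, on chromosome 7, 46376474 to 46379099 (ENSMUSG00000009471). This is 1.49-fold lower (log2 ratio −0.58, −0.91 to −0.25).

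Myog, the factor of terminal differentiation, had the ratio farthest from 1 of the 10 genes. Its counts were 82 and 35, 5.57 and 2.53 CPM, on chromosome 1, 134289989 to 134292548 (ENSMUSG00000026459). It was 2.26-fold lower (log2 ratio −1.17, −1.79 to −0.59), and a difference of up to 3.46-fold lies within counting error. It is the one of the 9 tested genes whose ratio passed 2-fold.

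Myf6, also called MRF4, is the family member of mature fibres, and differed little. It had 1591 and 1382 counts, 1.11-fold lower in scKO (log2 ratio −0.15, −0.26 to −0.05). Its high count makes the interval narrow, and the ratio lies inside the quartiles of all tested genes (−0.18 and 0.17) but below those of genes in its own count range, 1000 to under 10000 (−0.09 and 0.11). Myf6 lies on chromosome 10, 107492853 to 107494737 (ENSMUSG00000035923), with Myf5 next to it on the same strand, at 107482908 to 107486134 (ENSMUSG00000000435), after a gap of 6718 bases.

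Myf5, an early determination factor whose transcript is stored in quiescent satellite cells, stood on the other side. Counts of 23 and 34 give a log2 ratio of 0.60 (−0.19 to 1.45) that is not distinguishable from 0 at this depth. The neighbouring genes Myf5 and Myf6 differed in ratio by 1.70-fold, which counting error also covers (0.968 to 3.04).

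The makeup of the family, which does not depend on how the libraries are scaled, was compared as shares of its summed counts. Such shares are tied to each other: the share of Myf6 was higher in scKO although its own level was lower. Myf6 took 83.9% of the family's 1897 counts in flox/flox (exact binomial 95% interval 82.1 to 85.5) and 87.4% of 1581 in scKO (85.7 to 89.0). Myog took 4.32% (3.45 to 5.34) and 2.21% (1.55 to 3.07), and neither these intervals nor those of Myf6 overlap between the libraries. Those of Myf6 clear each other narrowly (85.5 and 85.7). No share over other gene families was computed, so the lack of overlap has no background. Myod1 took 10.6% (9.25 to 12.1) and 8.22% (6.92 to 9.69), and Myf5 1.21% (0.770 to 1.81) and 2.15% (1.49 to 2.99), with intervals that do overlap. Per length, as shares of summed FPKM, Myog took 3.79% and 1.92%. Without Myf6, Myod1 had nearly the same share of the remaining counts, 65.7% and 65.3%, while Myog took 26.8% and 17.6% and Myf5 7.52% and 17.1%.

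**Figure D3:**
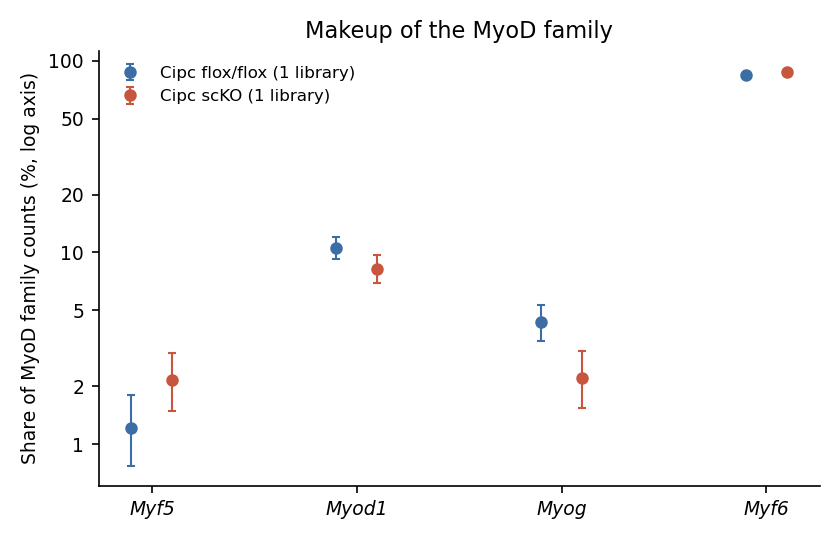
Share of each gene in the summed counts of the MyoD family, on a log axis, 1 point per library with bars for the exact binomial 95% interval. Myog takes 4.32% in flox/flox and 2.21% in scKO with bars that do not overlap, and Myf6 takes 83.9% and 87.4%.

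Among the 6 pairs of the family, 4 differed in ratio beyond counting error, without adjustment for the number of pairs. The share over pairs of all tested genes was not computed, so this count has no background. Of all single tested genes, 25.1% had an interval that excludes 0. Myf5 against Myog was the widest apart, with 0.280 Myf5 counts per Myog count in flox/flox and 0.971 in scKO (3.44-fold, 1.70 to 7.08). Myf5 against Myod1 was 2.28-fold apart (1.24 to 4.25), Myf6 against Myog 2.03-fold (1.34 to 3.14) and Myf6 against Myod1 1.34-fold (1.06 to 1.71). Myod1 and Myog did not differ from each other beyond counting error (1.51-fold, 0.944 to 2.46).

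The surface markers of satellite cells did not differ between the libraries beyond counting error. Cdh15 encodes M-cadherin, which joins the satellite cell to its fibre, and had 211 and 230 counts (log2 ratio 0.18, −0.10 to 0.45). Chodl encodes chondrolectin, a membrane protein of the C-type lectin family, and had 91 and 104 counts (0.24, −0.18 to 0.67). These intervals leave room for no more than a 1.07-fold lower level of Cdh15 and a 1.13-fold lower level of Chodl in scKO, as far as counting goes.

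Calcr and Megf10 were too thinly counted for as narrow a limit. Calcr, the calcitonin receptor, holds satellite cells in quiescence and had 14 and 12 counts (−0.16, −1.41 to 1.05). Megf10, a receptor with many EGF-like repeats that acts on satellite cell proliferation, had 37 and 31 counts (−0.20, −0.94 to 0.52). For these genes, levels up to 2.67-fold (Calcr) or 1.92-fold (Megf10) lower in scKO could not be told from an equal level. Summed over the 4 surface markers, the libraries held 353 and 377 counts (0.15, −0.07 to 0.36). Cdh15 lies on chromosome 8, 122847966 to 122867397 (ENSMUSG00000031962), Chodl on chromosome 16, 78930948 to 78951733 (ENSMUSG00000022860), Calcr on chromosome 6, 3685680 to 3764714 (ENSMUSG00000023964), and Megf10 on chromosome 18, 57133090 to 57297467 (ENSMUSG00000024593). Transcripts of Chodl share 50-base runs with those of 13 other genes, and those of Cdh15, Calcr and Megf10 with none. The microRNA genes Mir489 and Mir653 lie within Calcr and are not analysed here.

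Pax7 and the surface markers, though all are used to mark the same cells, differed in ratio. There were 3.06 Cdh15 counts per Pax7 count in flox/flox and 5.90 in scKO, 1.93-fold apart (1.22 to 3.06). Chodl against Pax7 was 2.02-fold apart (1.21 to 3.38) and Myf5 against Pax7 2.60-fold (1.29 to 5.34). Calcr and Megf10 did not differ from Pax7 beyond counting error. Myod1 and Pax7 did not either (1.14-fold, 0.714 to 1.85), nor did Pax7 and Myog (1.32-fold, 0.730 to 2.40). Cdh15 and Chodl did not differ in ratio beyond counting error, with 0.431 and 0.452 Chodl counts per Cdh15 count (1.05-fold, 0.738 to 1.49). Over all 36 pairs of the 9 tested genes, 14 differed beyond counting error. Of these, Myog was in 5. Pax7, Myod1, Myf6 and Cdh15 were in 4 each, Myf5 and Chodl in 3 each, Megf10 in 1 and Calcr in none. These pairs reuse the same genes, and no share over pairs of all tested genes was computed to set beside the count. Summed over Pax7, Myf5, Myod1 and the 4 surface markers, the libraries held 646 and 580 counts (log2 ratio −0.10, −0.27 to 0.06). The sum therefore did not differ beyond counting error, while Pax7 and Myod1 within it did.

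**Figure D4:**
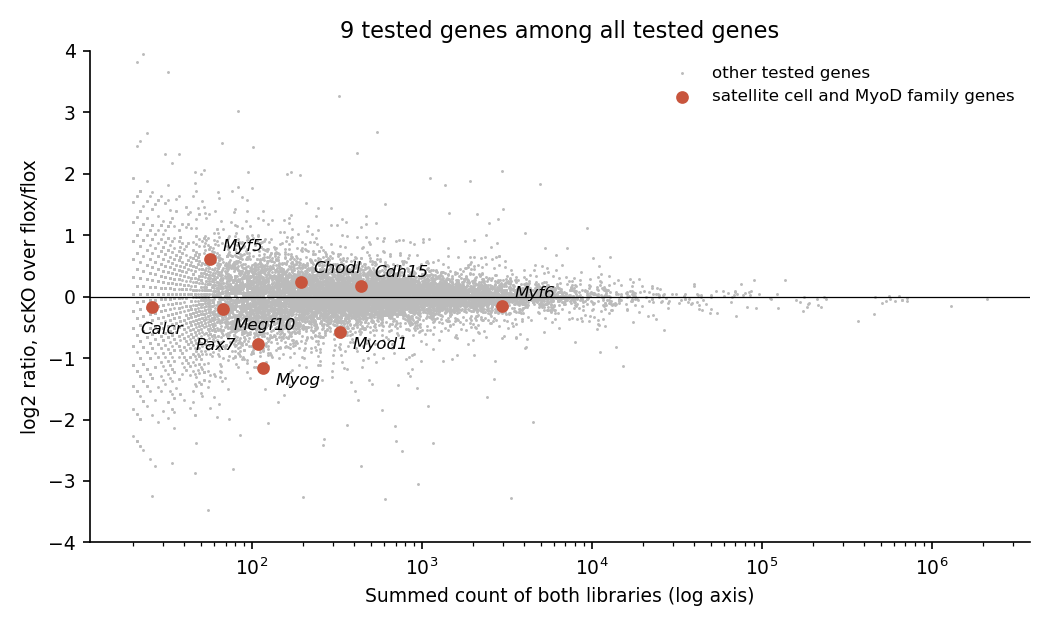
Log2 ratio of scKO over flox/flox against the summed count of both libraries (log axis), 1 point per tested gene that has a gene symbol. The 9 tested satellite cell and MyoD family genes are named. Grey points fan out at low counts, and Myog and Pax7 lie on the lower side at summed counts of 117 and 108. Of the genes with a symbol, 16 beyond a log2 ratio of 4 in size are not drawn.

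Promoter sequence was set beside these ratios for 6 of the 10 genes, those with a window in the RefSeq promoter table used here (GRCm38.p6); Pax3, Myod1, Myf6 and Megf10 were not analysed here. The windows of a pair of genes that were lower in scKO (Myog and Pax7) and of a pair that were not (Cdh15 and Chodl) are shown, each with 250 bases before and 50 after the RefSeq start. By the GENCODE positions given above, the windows of Pax7 and Cdh15 lie wholly inside the gene, as does 1 of the 2 windows of Calcr. Their E-box counts therefore do not describe the sequence before the outermost annotated start. Capitals mark E-boxes, the letters CANNTG, which read the same on both strands.
Myog, chr1:134289754-134290053, plus strand: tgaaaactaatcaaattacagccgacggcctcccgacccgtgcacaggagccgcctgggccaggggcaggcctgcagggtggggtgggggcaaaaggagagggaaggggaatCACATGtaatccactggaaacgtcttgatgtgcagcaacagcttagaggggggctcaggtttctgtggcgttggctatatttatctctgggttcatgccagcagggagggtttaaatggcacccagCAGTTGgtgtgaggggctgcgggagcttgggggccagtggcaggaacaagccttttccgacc
Pax7, chr4:139832919-139833218, minus strand: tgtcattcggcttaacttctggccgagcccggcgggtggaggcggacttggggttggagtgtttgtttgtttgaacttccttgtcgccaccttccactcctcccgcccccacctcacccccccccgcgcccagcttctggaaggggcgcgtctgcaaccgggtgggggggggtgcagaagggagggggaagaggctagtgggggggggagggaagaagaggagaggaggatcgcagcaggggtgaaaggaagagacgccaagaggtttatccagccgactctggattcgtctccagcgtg
Cdh15, chr8:122848124-122848423, plus strand: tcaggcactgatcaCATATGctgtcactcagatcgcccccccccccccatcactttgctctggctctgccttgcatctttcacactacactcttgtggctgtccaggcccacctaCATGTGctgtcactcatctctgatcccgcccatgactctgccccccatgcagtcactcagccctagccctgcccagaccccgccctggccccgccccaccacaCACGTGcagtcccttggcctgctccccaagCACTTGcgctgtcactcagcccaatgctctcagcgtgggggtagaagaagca
Chodl, chr16:78930698-78930997, plus strand: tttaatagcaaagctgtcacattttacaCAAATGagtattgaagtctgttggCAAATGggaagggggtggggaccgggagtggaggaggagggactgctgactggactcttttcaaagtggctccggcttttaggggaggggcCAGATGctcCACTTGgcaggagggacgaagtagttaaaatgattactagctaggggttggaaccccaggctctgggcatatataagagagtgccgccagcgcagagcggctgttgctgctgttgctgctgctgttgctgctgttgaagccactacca
Myog had 2 E-boxes, CACATG at −138 and CAGTTG at −12 from the start. Pax7 had none in this window. Cdh15 and Chodl had 4 each, which 6.49% of the 32851 windows in the RefSeq table match or exceed, while 72.3% hold at least 1. The Myf5 window held none, and of the 2 windows of Calcr 1 held a single E-box, CACCTG. None of these windows of the 6 genes held CAGCTG, which 16.3% of all windows hold. None held the strict MEF2 pattern YTAWWWWTAR either, which 3.19% hold on either strand (Y is C or T, W is A or T, R is A or G). The Myog window holds ctatatttat, which departs from this pattern at its last base alone. Looser forms were not searched, so the lack of a strict match does not mean that a MEF2 site is absent. TATAAA, held by 13.6%, was found in the window of Myf5 alone. A match is a description of the letters and not a bound site, and of the 2 lower genes with a window, Myog held E-boxes and Pax7 held none.

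Of 18 listed factors upstream of the MyoD family, 16 were tested, with 5 intervals above 0, 4 below and a median log2 ratio of −0.033, beside 12.8%, 12.3% and 0.0021 over all tested genes. Nfix, which switches muscle progenitors from the embryonic to the fetal gene program, had 3668 and 857 counts, 4.13-fold lower in scKO (−2.05, −2.16 to −1.94). Meox1, a homeobox gene of the somite, had 25 and 7 counts (−1.72, −3.24 to −0.54). Eya3, a transcriptional coactivator, was 2.41-fold higher, with 102 and 237 counts (1.26, 0.93 to 1.62).

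The E-protein genes Tcf3, Tcf12 and Tcf4, whose products pair with the MyoD family, stood at −0.34 (−0.69 to 0.01), −0.047 (−0.27 to 0.18) and −0.20 (−0.38 to −0.03). Of these 3 intervals, 1 lay below 0, beside 12.3% of all tested genes. Among 16 listed antagonists, proteins that block such pairing or compete for E-boxes, 11 were tested, with 3 intervals above 0, 2 below and a median of −0.030, beside 12.8% and 12.3% of all tested genes. The median was 0.12 among those with a summed count of at least 100. Zeb1, a repressor at E-boxes, was higher with 461 and 607 counts (0.45, 0.27 to 0.63), as was the clock repressor Bhlhe41 (0.31, 0.20 to 0.43). Tcf15 was lower with 90 and 55 counts (−0.65, −1.17 to −0.16), and Id2, which traps E-proteins, had 36 and 26 (−0.41, −1.20 to 0.35).

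Targets of the family and fusion genes had ratios on both sides: of 14 tested among 16, 4 had intervals below 0 and 4 above, with a median of −0.029, beside 12.3% and 12.8% of all tested genes. Among tested genes with a summed count from 1000 to under 10000, where only Lmod2, Jsrp1, Dusp13 and Rbm24 of this list lie, these shares were 17.5% and 22.2%. Actc1, Ckm and Des have higher counts. At such counts even small log2 ratios, as those of Ckm (−0.079) and Des (0.035), have intervals that exclude 0. Cardiac α-actin (Actc1), which immature muscle expresses, was 2.18-fold lower with 10625 and 4708 counts (−1.12, −1.17 to −1.07). The cell cycle inhibitor Cdkn1a was higher with 83 and 126 counts (0.65, 0.24 to 1.07), as was Rb1 with 301 and 356 (0.29, 0.07 to 0.52). Embryonic myosin (Myh3) had 66 and 80 counts (0.33, −0.16 to 0.82), and the fusion genes Mymk (2 and 4 counts) and Mymx (0 and 1) were too thinly counted to be tested.

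Of the acetylcholine receptor and denervation genes, a program in which Myog is a regulator, 14 of 15 were tested. Of these 7 had intervals below 0 and 1 above, with a median of −0.23, beside 12.3%, 12.8% and 0.0021 over all tested genes. The list mixes repressors of Myog with other members of the program, so this count and median give no direction of the program. The 1 above was Gadd45a, with 183 and 232 counts (0.39, 0.11 to 0.68). Sik1, Fbxo32 and Trim63, which are among the 7 below, have summed counts from 1000 to under 10000, where 17.5% of tested genes were below. Dach2 and Hdac9, both described as repressors of Myog in innervated muscle, were lower like Myog itself: Dach2 had 66 and 27 counts, 2.36-fold lower (−1.22, −1.94 to −0.57), and Hdac9 157 and 89 (−0.76, −1.16 to −0.38). Hdac4, which represses Dach2 after denervation, stood at −0.43 (−0.63 to −0.24). Of the receptor subunits, whose promoters MyoD family factors bind, Chrnb1 was lower with 443 and 278 counts (−0.62, −0.84 to −0.40), while Chrna1 (−0.20, −0.49 to 0.09), Chrnd (0.23, −0.37 to 0.83) and Chrne (−0.083, −0.36 to 0.19) had intervals that include 0.

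Of 15 listed ligands and partners of the surface markers, 12 were tested, with 4 intervals below 0, 2 above and a median of 0.0093, beside 12.3% and 12.8% of all tested genes. With total-count scaling 3 lay below and 3 above. The 3 collagen V chains, which form a ligand of the calcitonin receptor in the satellite cell niche, were each lower: Col5a1 had 533 and 383 counts (−0.43, −0.62 to −0.23), Col5a2 385 and 253 (−0.55, −0.79 to −0.32) and Col5a3 396 and 236 (−0.69, −0.93 to −0.46). Calcr itself had too few counts to tell. Markers of fibro-adipogenic progenitors, which also make these collagens, were lower in 2 of 6 cases, Pdgfra (−0.45, −0.74 to −0.17) and Dcn (−0.12, −0.19 to −0.06), and summed to 326.1 and 306.0 CPM; their part in the collagen ratios was not tested. Ramp1, which pairs with calcitonin-type receptors, was higher with 490 and 637 counts (0.43, 0.26 to 0.60). N-cadherin (Cdh2), another cadherin of the satellite cell, had 10 and 22 counts (1.15, 0.05 to 2.43), and Gulp1, an adaptor that binds Megf10-type receptors, 35 and 52 (0.61, −0.02 to 1.28).

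Other genes used to describe satellite cells, 18 in number and all tested, had 4 intervals below 0 and 1 above (2 above with total-count scaling), with a median of −0.0041, beside 12.3% and 12.8% of all tested genes. Met, the receptor of hepatocyte growth factor that activates satellite cells, was 1.92-fold lower with 346 and 174 counts (−0.94, −1.21 to −0.67). Hes1, an effector of Notch, had 248 and 144 counts (−0.73, −1.04 to −0.43), and Peg3 499 and 348 (−0.47, −0.67 to −0.27). Fgfr1 was higher (0.29, 0.17 to 0.41), and the chemokine receptor Cxcr4 had 18 and 22 counts (0.33, −0.63 to 1.32). Many of these genes are also expressed by fibres, endothelium or connective tissue cells. The medians of this list and of the upstream factors, antagonists and targets lay above 0 with scaling by total count, and that of the ligands and partners just below 0 with DESeq2 size factors.

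**Figure D5:**
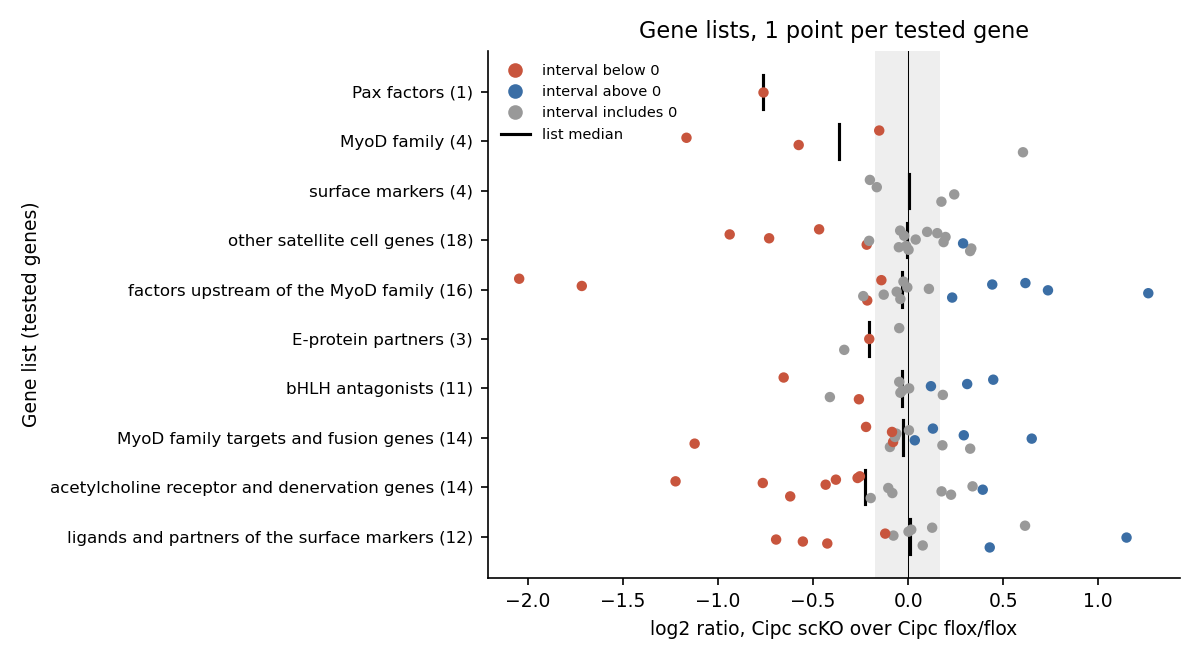
Log2 ratios of scKO over flox/flox for the tested genes of 10 gene lists, 1 point per gene, coloured by whether the 95% counting interval lies below, above or across 0. Black bars mark list medians and the grey band the quartiles of all tested genes. Nfix, at −2.05, is the leftmost point, and the acetylcholine receptor and denervation list has 7 of 14 points with intervals below 0.

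Markers of other cells of the muscle were present in both libraries. Over all tested genes, 12.3% had an interval below 0 and 12.8% above. Fibro-adipogenic progenitor markers, summed above, had 2 of 6 intervals below 0 and none above. Endothelial markers summed to 176.1 and 192.2 CPM, smooth muscle and pericyte markers to 444.3 and 461.1, and macrophage markers to 28.9 and 34.7, each with 1 of 6 intervals above 0 and none below. The endothelial list had none above with DESeq2 size factors and 2 with total-count scaling, and the smooth muscle and pericyte list 2 with the latter. Schwann cell markers summed to 46.5 and 46.6 CPM with 1 of 5 tested intervals below 0, and tendon markers to 35.4 and 37.1 with none of 3 either way. The Schwann cell gene below 0 was Sox10, with 27 and 9 counts (−1.48, −2.81 to −0.40). Of the listed genes of other cells, the tendon factor Mkx was at 0 counts in scKO (4 in flox/flox). The part of these cells in the ratios of Pax7, Myod1 and Myog was not tested.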

How the data were processed

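RNA sequencing of gastrocnemius muscle gave 2 libraries, 1 per genotype, with 14727219 and 13842100 counts. The authors deposited whole-number counts per Ensembl gene, not normalized, and FPKM per library, per the file headers. CASAVA, HISAT2 2.0.4, StringTie 1.3.0 and the GRCm38 build are named, per the submitters' processing notes. Not given in the sources used here are the annotation release, counting options, strand setting and treatment of reads matching several genes. Symbols came from a reference table that named 34267 of 34745 genes, positions and transcripts from GENCODE M21, promoters from RefSeq (GRCm38.p6). Among the 10 genes, only Cdh15 (Gm20388, 0 counts in both libraries) and Calcr (2 microRNA genes) overlap another gene.

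Libraries were scaled by TMM (edgeR 4.0.16, R 4.3.3). Log2 ratios used a prior count of 0.5, with exact conditional binomial (Clopper-Pearson) 95% intervals. Ratios between pairs of genes used exact conditional odds ratios. Intervals, and the limit of 3 counts for a count of 0, cover counting error only. Genes with a summed count of at least 20 were tested; past 2-fold means a ratio of at least 2 or at most 0.5 and an interval that excludes 1. No p-value was computed, since there is 1 library per group. Coding sequences were aligned with MAFFT 7.526. Python 3.11.15, numpy 2.4.6, scipy 1.17.1, pandas 2.3.3 and matplotlib 3.10.9 were used, and the procedure was tested on simulated counts. Those counts were drawn with counting error alone, so they do not show how the intervals behave with spread between animals. Alternatives were total-count scaling, DESeq2 1.42.0 size factors, TMM without mitochondrial genes, a prior count of 5, other count minimums and log2(FPKM + 0.1). The 10 genes, and the lists of related genes, were chosen with earlier results of these data known. The named genes were the 10 genes, Cipc, and from each list up to 4 tested members with the largest absolute log2 ratio, plus further list members where the list is described; some listed genes are not reported here by name.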

Additional observations from a re-analysis of the deposited data

How the results depend on the processing

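The 4 genes with intervals below 0 were Pax7, Myod1, Myog and Myf6 under every scaling and count minimum tried, and Myog remained the single gene past 2-fold. Over 6 settings of scaling, prior count and FPKM the log2 ratio ran from −1.18 to −1.07 for Myog, −0.77 to −0.62 for Pax7, −0.59 to −0.53 for Myod1, −0.16 to −0.11 for Myf6 and 0.52 to 0.64 for Myf5. Total-count scaling shifts every log2 ratio up by 0.038, and with it the lists of upstream factors, antagonists and fusion genes each lost 1 interval below 0 and their medians turned to 0.0055, 0.0068 and 0.0095, and Tcf4 no longer lay below 0. Counts of genes over the whole table moved with the count minimum: with none, 369 genes were at least 2-fold lower in place of 242, and with 100, 68 were lower and 58 higher in place of 242 and 189. Shares of the MyoD family per length, from FPKM, were 88.0% and 91.0% for Myf6, 7.48% and 5.76% for Myod1 and 0.762% and 1.34% for Myf5, in place of shares of counts that do not correct for length. No paired analysis was possible because each group has 1 library, and for the same reason no library could be left out. The depth limits Pax3, Calcr and Myf5 most.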
